A study of Mus musculus with 78 samples.

Results

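Total RNA was sequenced from mouse embryonic stem cells (mESCs) in which TRIM28 can be degraded and hairpins against endogenous retrovirus (ERV) RNA can be switched on. Compared here are 3 libraries given doxycycline (Dox) with dTAG-13 and 3 libraries given dTAG-13 without doxycycline at the same time. The choice was made by sample labels and not by any measured value. Together with 3 DMSO libraries these are the 9 libraries of the shERV line, out of 78 samples in the series. Of 54446 gene identifiers in the gene tables, 16166 reached 1 TPM or more (StringTie's transcript abundance, scaled to length and library total) in 3 or more of the 9 libraries and were tested.

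The parental cells are V6.5 mESCs in which both alleles of Trim28 carry an FKBP degron, a tag through which the small molecule dTAG-13 sends the fusion protein to the proteasome. All 9 libraries carry that tag and the same set of tetO-driven hairpins, which are transcribed once doxycycline is added. The hairpins are directed at 4 ERV families (IAPez, MMERVK10c, MMERVK9c and MMETn), with 2 hairpins for each. DMSO cells received the vehicle for 24 h, dTAG-13 cells received 500 nM dTAG-13 for 24 h, and Dox + dTAG-13 cells received the same dTAG-13 treatment with 2 µg per mL of doxycycline. The treatment note in the labels gives 24 h of doxycycline beforehand to all 3 groups and continued doxycycline to the Dox + dTAG-13 group. Whether the dTAG-13 and DMSO cells had doxycycline beforehand could not be settled here.

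The line was maintained on irradiated CD1 fibroblast feeders, which were removed before RNA-seq by repeated attachment to gelatin, and the treated cells were on gelatin without feeders. The tagged line came from picked single colonies. No group with doxycycline in the treatment period but without dTAG-13, and no group with a non-targeting hairpin, was analysed here. An action of doxycycline or of hairpin expression as such and an action of ERV knockdown thus cannot be told apart. The gene tables hold neither the ERV RNAs nor TRIM28 protein, so that the extent of ERV knockdown, and of TRIM28 degradation in each group, is not measured by the values below. The study calls the 3 libraries of a group biological replicates but nothing at hand ties them to separate cultures, and the p-values measure the spread between these libraries only.

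TRIM28 is a corepressor that KRAB zinc finger proteins bring to ERVs, where it recruits the H3K9 methyltransferase SETDB1 and HP1 proteins. ERVs are remnants of retroviral infection of the germ line, with an internal region between a pair of long terminal repeats that act as promoters. Embryonic stem cells maintain pluripotency through transcription factors such as OCT4 (encoded by Pou5f1), SOX2 and NANOG, which bind dense clusters of enhancers called super-enhancers (SEs). The question the comparison addresses is whether genes that are altered when TRIM28 is degraded, SE-associated pluripotency genes among them, are altered less when ERV RNA is knocked down.

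The 8 hairpin targets are shown because they define what the doxycycline-induced hairpins can pair with. They are written 5′ to 3′ in the sense of the target RNA, as in the oligos of the study, and capitals mark the 7 bases opposite the seed (positions 2 to 8) of the antisense strand of the hairpin.
MMETn hairpin 1: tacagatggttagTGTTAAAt
MMETn hairpin 2: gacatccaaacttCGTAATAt
MMERVK9c hairpin 1: cccagaggcagagAGAAATTt
MMERVK9c hairpin 2: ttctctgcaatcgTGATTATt
MMERVK10c hairpin 1: ccggtaagtgtaaAGAAATTa
MMERVK10c hairpin 2: caaggccgttatgGAAATTAa
IAPez hairpin 1: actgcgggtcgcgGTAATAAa
IAPez hairpin 2: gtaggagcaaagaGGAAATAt

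Exact copies of these 21-base targets were counted on both strands of the mouse genome (GRCm38, the mm10 build). The IAPez targets had the most copies, with 1196 for hairpin 1 and 774 for hairpin 2, spread over 21 chromosomes. The MMETn targets had 267 and 177 copies, and 169 and 136 of the 445 full-length MMETn elements listed by the study held one. The MMERVK10c targets were rarer, with 11 and 22 copies, held by 9 and 15 of 349 listed elements. The MMERVK9c targets had 5 and 62 copies, of which 1 and 5 lay in one of 196 listed elements. Copies with mismatches were not counted. An exact match in the sense strand of an annotated transcript was found in 10 genes, whose values are given further on.

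Read depth was close to even across the 9 libraries. Relative depth, from the mean read coverage of 17019 genes, ran from 0.873 to 1.18 of the typical library, and read numbers are unknown. Pearson's r between libraries over log2 TPM of the tested genes ran from 0.9929 to 0.9946 within groups. It ran from 0.9758 to 0.977 between dTAG-13 and Dox + dTAG-13 libraries, and from 0.9895 to 0.9945 between DMSO and Dox + dTAG-13 libraries. DMSO replicate 1 stood apart in composition. The 50 genes of highest mean TPM over the 9 libraries took 38.8% of its TPM, against 31.1% to 35.0% in the other 8 libraries. The mESC markers Pou5f1, Sox2, Nanog, Zfp42 and Esrrb summed to between 385 and 393 TPM with dTAG-13. They summed to between 746 and 843 TPM in DMSO and to between 798 and 814 TPM with Dox + dTAG-13. The feeder markers (Col1a1, Col1a2, Col3a1, Lum, Dcn, Postn and Thy1) summed to between 102 and 110 TPM in DMSO. Their sums were between 96.5 and 108 TPM with dTAG-13 and between 112 and 117 TPM with Dox + dTAG-13. Most of it was Col1a1 and Col1a2, while Lum stayed under 1 TPM in every library. Here as in any bulk sample, fewer cells of a type and less RNA per cell cannot be told apart.

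Trim28, on chromosome 7 from 12999114 to 13031035 (mm10, as are all positions here), was read first. Its transcript stood at 252, 283 and 276 TPM in the DMSO libraries. It stood at 213, 203 and 203 TPM with dTAG-13, and at 285, 284 and 284 TPM with Dox + dTAG-13. The dTAG-13 libraries were thus the lowest of the 9 and did not overlap the others. Such separation was common. Of 16166 tested genes, 3687 had every Dox + dTAG-13 library above every dTAG-13 library, and 5822 had every one below. The difference of Dox + dTAG-13 minus dTAG-13 was 0.46 on the log2(TPM + 0.5) scale (standard error 0.05, adjusted p = 1.1e-05, limma over all tested genes with Benjamini-Hochberg adjustment). Since dTAG-13 acts on the protein, this transcript does not show whether TRIM28 was degraded.

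Among all genes, 558 of 16166 (3.45%) differed by more than 2-fold between Dox + dTAG-13 and dTAG-13 at an adjusted p below 0.05, the rule for a called gene here. With Dox + dTAG-13, 241 genes were called higher (1.49% of those tested) and 317 were called lower (1.96%). Without the demand on fold, 7562 genes (46.8%) passed the adjusted p, 2825 higher (17.5%) and 4737 lower (29.3%). The median log2 difference of all tested genes was -0.04. The split of higher and lower calls depends on the scaling: after each library was centred on its median gene, 293 genes were called higher and 252 lower, and 4570 and 4123 passed without the demand on fold. Centring moved the median gene from -0.04 to 0.03 in this comparison and from 0.14 to -0.03 in dTAG-13 minus DMSO.

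**Figure D1:**
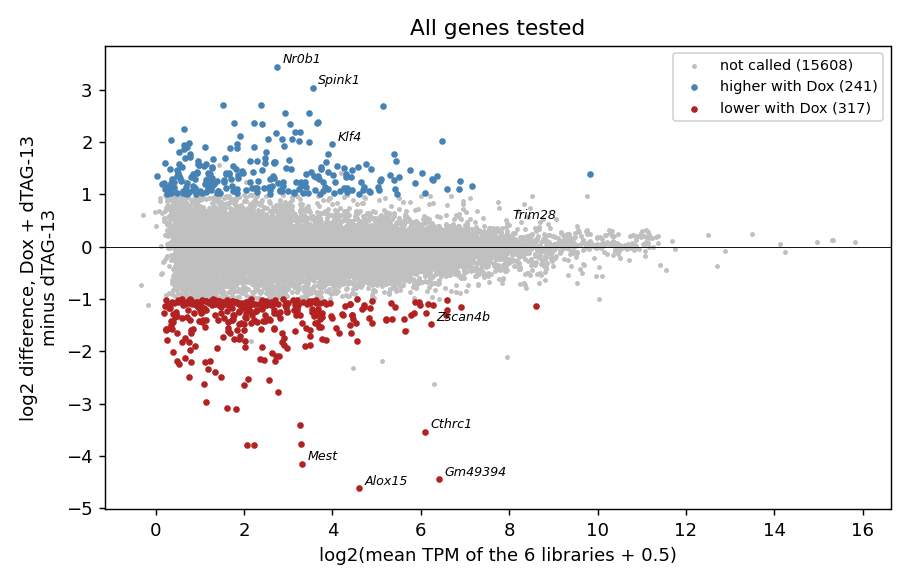
Log2 difference (Dox + dTAG-13 minus dTAG-13, vertical axis) against log2 of the mean TPM of the 6 libraries plus 0.5 (horizontal axis) for each of the 16166 tested genes; blue points are the 241 genes called higher and red points the 317 called lower. The largest falls reach -4.62 (Alox15) and the largest rise is 3.43 (Nr0b1).

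The transcript levels of pluripotency factors were higher with Dox + dTAG-13 than with dTAG-13, and lay near those of the DMSO cells. The list of pluripotency genes was chosen with earlier results of these data known. Of 26 genes listed and tested, 23 rose with an adjusted p below 0.05 (88.5%, against 17.5% of all genes). None of the 26 fell, against 29.3% of all genes. More than 2-fold rises were called for 16 of them, against 1.49% of all tested genes. The median difference of the list was 1.28 on the log2 scale. The same list had a median of -1.28 in dTAG-13 minus DMSO and of 0.01 in Dox + dTAG-13 minus DMSO. These contrasts share libraries, and the 3 medians are given side by side only.

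Nr0b1, which encodes the nuclear receptor DAX1 of the pluripotency network, showed the largest rise of all called genes. It was listed at 11.6, 11.9 and 13.7 TPM in DMSO, at 0.748, 0.767 and 0.446 TPM with dTAG-13, and at 12.0, 11.7 and 11.9 TPM with Dox + dTAG-13. All 3 dTAG-13 libraries lay far below the other 6, and the difference of Dox + dTAG-13 minus dTAG-13 was 3.43 ± 0.11 (SE, adjusted p = 2.6e-09, limma), or 10.8-fold on that scale. Tcl1, a cofactor of AKT kinase that is abundant in mESCs, followed the same order of groups. Its levels were 7.83, 7.59 and 8.50 TPM in DMSO, 0.847, 0.922 and 0.875 TPM with dTAG-13, and 8.20, 8.44 and 9.11 TPM with Dox + dTAG-13. Its difference was 2.72 ± 0.08 (SE, adjusted p = 1.3e-09, limma).

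Klf4, a reprogramming factor and member of the naive network on chromosome 4 (55527143 to 55532466), was at 23.1, 23.9 and 25.5 TPM in DMSO. It was at 5.99, 6.11 and 6.11 TPM with dTAG-13 and at 25.6, 24.6 and 24.8 TPM with Dox + dTAG-13. The dTAG-13 libraries did not overlap the other 6, and the difference was 1.96 ± 0.05 (SE, adjusted p = 6.2e-10, limma), or 3.88-fold. The nuclear receptors Nr5a2 and Esrrb, which take part in the same network, rose by 2.17 and 1.64. Esrrb was at 51.9, 55.2 and 63.1 TPM in DMSO, at 19.6, 22.1 and 19.5 TPM with dTAG-13, and at 59.8, 66.95 and 67.5 TPM with Dox + dTAG-13. Prdm14, a repressor of lineage genes in the germ line and mESCs, was a low transcript, at 0.504, 0.282 and 0.479 TPM with dTAG-13 against 2.94, 3.11 and 2.79 TPM with Dox + dTAG-13. Its difference was 1.91 ± 0.14 (SE, adjusted p = 7.3e-07, limma).

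Among the core factors, Sox2 showed a larger difference than Pou5f1. Sox2 (chromosome 3, 34650405 to 34652461) was at 45.3, 45.4 and 47.7 TPM with dTAG-13 and at 124, 122 and 112 TPM with Dox + dTAG-13. Its DMSO libraries held 116, 125 and 129 TPM, so that the DMSO and Dox + dTAG-13 groups overlapped and the dTAG-13 group did not. Its difference was 1.36 ± 0.05 (SE, adjusted p = 7.6e-09, limma). Nanog was at 56.9, 60.7 and 63.6 TPM with dTAG-13 and at 128, 132 and 131 TPM with Dox + dTAG-13, a difference of 1.10. Pou5f1, the most abundant of these, was at 236, 235 and 229 TPM with dTAG-13 and at 418, 414 and 408 TPM with Dox + dTAG-13. Its difference of 0.82 passed the adjusted p (2.1e-07, limma) and stayed under 2-fold.

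Fgf4, the growth factor through which mESCs stimulate their own ERK signalling, was at 18.2, 18.6 and 19.4 TPM with dTAG-13 and at 63.4, 66.9 and 64.4 TPM with Dox + dTAG-13. DMSO libraries held 61.5, 63.5 and 63.6 TPM, and the difference of 1.77 ± 0.04 (SE, adjusted p = 2.3e-10, limma) was among the most precise. Mycn, a MYC family member of proliferating mESCs, rose by 1.40 and the zinc finger gene Sall1 by 1.30. Tbx3, a T-box factor of the naive network, rose by 1.34 from between 9.99 and 11.5 TPM to between 26.9 and 29.1 TPM. Klf2 and Klf5 rose less than Klf4, by 0.55 and 0.45. The 3 members that did not pass the adjusted p were the Nodal antagonists Lefty1 (0.12) and Lefty2 (-0.13) and the RNA-binding gene Lin28a (-0.10).

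**Figure D2:**
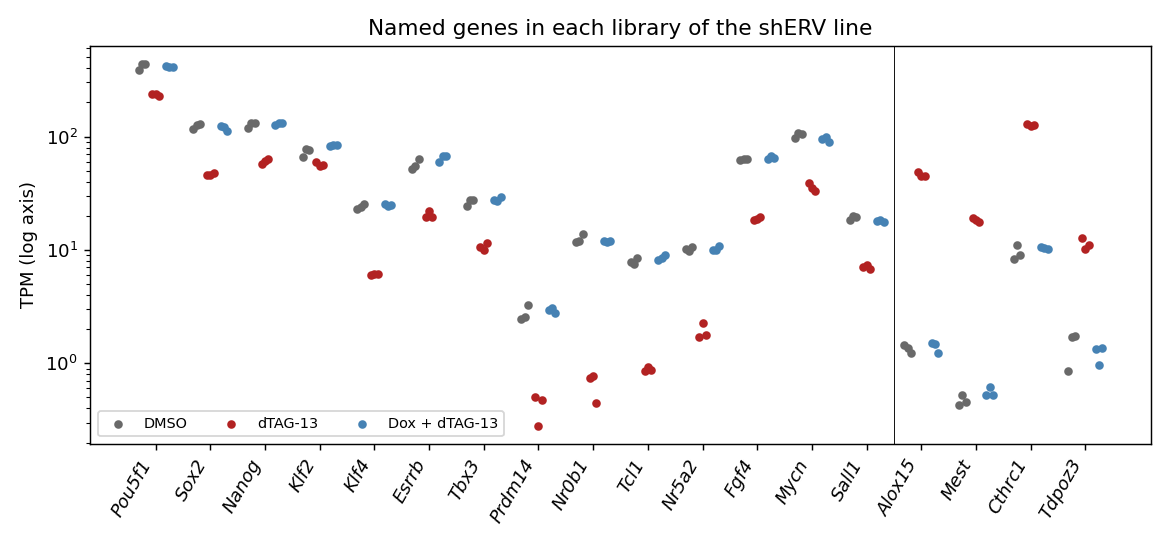
TPM on a log axis for 18 named genes in each of the 9 libraries, with DMSO in grey, dTAG-13 in red and Dox + dTAG-13 in blue; each point is 1 library. Left of the vertical line, the dTAG-13 points of the 14 pluripotency and SE-associated genes lie below the points of both other groups; right of it, those of Alox15, Mest, Cthrc1 and Tdpoz3 lie above them.

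Several genes outside the pluripotency list were among the 10 largest rises. They were the protease inhibitor gene Spink1 (3.03), the keratin gene Krt42 (2.7), the lincRNA Gm46332 (2.68), the helix-loop-helix factor gene Tcf15 (2.56) and the water channel gene Aqp3 (2.55). The myocyte fusion gene Mymx and the genes Accsl and 2410137M14Rik completed the set with rises of 2.39, 2.37 and 2.37. Tcf15, which is known from the transition out of naive pluripotency, was at 2.94, 2.09 and 3.14 TPM with dTAG-13 and at 16.7, 18.9 and 19.6 TPM with Dox + dTAG-13. In DMSO it was at 15.9, 18.1 and 19.2 TPM, which overlaps the latter group.

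The miR290-295 locus on chromosome 7 encodes the most abundant microRNAs of mESCs, several of which share a seed and promote the rapid cell cycle of these cells. Mature 3p forms of some members are given because a shared seed joins several of them, with the seed (bases 2 to 8) in capitals. Other members of the locus are not shown. Sequences are from RefSeq on GRCm38.p6.
mmu-miR-290a-3p: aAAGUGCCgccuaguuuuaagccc
mmu-miR-291a-3p: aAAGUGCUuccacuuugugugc
mmu-miR-291b-3p: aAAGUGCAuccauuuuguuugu
mmu-miR-293-3p: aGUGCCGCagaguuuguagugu
mmu-miR-294-3p: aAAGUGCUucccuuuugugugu
mmu-miR-295-3p: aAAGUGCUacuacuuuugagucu

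The forms miR-291a-3p, miR-294-3p and miR-295-3p have the same seed, AAGUGCU. Those of miR-290a-3p and miR-291b-3p differ from it in their last base only, and miR-293-3p has another seed. No selection of small RNA is named for these libraries, so the values refer to reads over the microRNA genes and not to mature microRNA. Of 7 tested members of the locus, the neighbouring gene AU018091 included, 6 rose (85.7%, against 17.5% of all genes). Rises of more than 2-fold were called for 4 (57.1%, against 1.49%). Of all tested microRNA genes, 31.4% rose and 5.61% were called higher. The median difference of the locus was 1.12, and it ran from 0.865 to 1.61 when single libraries of either group were taken. The microRNAs of the locus share a primary transcript, so their values are not independent.

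Mir294 was at 3.51, 3.78 and 2.7 TPM with dTAG-13 and at 10.1, 9.58 and 15.6 TPM with Dox + dTAG-13. Its DMSO libraries held 13.3, 14.1 and 11.0 TPM, and the difference was 1.66 ± 0.17 (SE, adjusted p = 1.1e-05, limma). Mir295, Mir291b and Mir293 rose by 1.33, 1.30 and 1.12. Mir290a, whose start lies 0.444 kb from a listed SE, was at 6.58, 6.41 and 7.13 TPM with dTAG-13, at 12.0, 11.6 and 13.1 TPM with Dox + dTAG-13 and at 13.6, 18.1 and 16.9 TPM in DMSO. Its Dox + dTAG-13 libraries thus lay between the other groups without overlap, with a rise of 0.82 over dTAG-13. For Mir291a the groups overlapped, with 0.889, 3.52 and 1.26 TPM against 2.65, 1.96 and 7.57 TPM, and the difference of 0.89 did not pass (adjusted p = 0.10, limma).

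The genes nearest to SEs gave a wider view of the same question. Each of 231 SEs listed by the study was joined to the nearest active gene by gene start, which gave 214 genes, all of them tested. With Dox + dTAG-13, 109 of these were higher (50.9%, against 17.5% of all genes) and 39 lower (18.2%, against 29.3%). More than 2-fold rises were called for 38 (17.8%, against 1.49%) and falls for 2 (0.935%, against 1.96%). Their median difference was 0.16, against -0.04 over all genes, with -0.11 in dTAG-13 minus DMSO and 0.07 in Dox + dTAG-13 minus DMSO. Of the 214 genes, 20 are members of the pluripotency list; among the other 194, 91 were higher and 39 lower, 25 and 2 were called, and the median was 0.13.

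Sox2, Nanog and Mycn start inside an SE, and Pou5f1 starts 0.528 kb from one, Klf2 2.27 kb and Fgf4 3.60 kb. Larger distances were found for Tbx3 (8.91 kb), Prdm14 (22.5 kb), Sall1 (27.9 kb), Klf4 (54.3 kb) and Esrrb (105 kb). Between these 11 genes, differences of Dox + dTAG-13 minus dTAG-13 ran from 0.55 at Klf2 to 1.96 at Klf4. The SE-nearest genes called with the widest rises were Cobl (2.36), which encodes an actin nucleator, and H2-M5 (2.34), both named after their values were seen. The DNA demethylation enzyme genes Tet2 and Tet1 were also called, with 1.52 and 1.21. Tet1 was at 34.8, 34.3 and 35.9 TPM with dTAG-13 and at 81.2, 83.0 and 80.5 TPM with Dox + dTAG-13. The 2 SE-nearest genes called lower, also named after their values were seen, were the noncoding genes 1700108F19Rik (-1.74) and Gm16201 (-1.45). The former was at 11.2, 11.2 and 10.8 TPM with dTAG-13 and at 3.47, 2.46 and 3.02 TPM with Dox + dTAG-13.

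At the other end, the genes with the largest falls were a mixed set of coding and noncoding genes. Alox15, which encodes a lipoxygenase that oxidises polyunsaturated fatty acids, fell furthest. It was at 1.46, 1.36 and 1.23 TPM in DMSO, at 48.7, 44.7 and 44.8 TPM with dTAG-13, and at 1.51, 1.47 and 1.22 TPM with Dox + dTAG-13. DMSO and Dox + dTAG-13 libraries overlapped, and the difference of Dox + dTAG-13 minus dTAG-13 was -4.62 ± 0.09 (SE, adjusted p = 4.8e-11, limma). Mest, a paternally expressed imprinted gene, was at 19, 18.3 and 17.5 TPM with dTAG-13 and at 0.527, 0.613 and 0.524 TPM with Dox + dTAG-13. Its DMSO libraries were between 0.433 and 0.523 TPM, and the difference was -4.15 ± 0.10 (SE, adjusted p = 2e-10, limma).

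The other largest falls were those of Gm49394 (-4.44), Gm40663 (-3.78), Gm20499, the cytochrome gene Cyp2b23 (-3.78), Cthrc1 (-3.54), the acetyltransferase gene Nat8f2 (-3.40), Gm19792 (-3.11) and 2010005H15Rik (-3.08). Gm49394 on chromosome 7 rose from between 2.69 and 7.71 TPM in DMSO to between 160 and 167 TPM with dTAG-13, and lay between 5.77 and 8.47 TPM with Dox + dTAG-13. It lies on the same strand as the growth factor gene Igf2 and overlaps it, so that reads assigned to either are uncertain. Igf2 itself was at 429, 416 and 457 TPM with dTAG-13 and at 413, 409 and 414 TPM with Dox + dTAG-13, and did not pass (difference -0.07, adjusted p = 0.21, limma). Gm20499 varied widely within groups, at 6.04, 0.414 and 1.80 TPM in DMSO and at 1.68, 12.6 and 10.9 TPM with dTAG-13. It was listed at 0 in all 3 Dox + dTAG-13 libraries, so that its place among these falls depends on the pseudocount and no fold is given for it.

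Cthrc1, which encodes a secreted collagen repeat protein, starts 2.86 kb from a listed ERV on chromosome 15. It was at 8.33, 11.1 and 8.95 TPM in DMSO, at 130, 123 and 126 TPM with dTAG-13, and at 10.5, 10.5 and 10.2 TPM with Dox + dTAG-13. The difference of Dox + dTAG-13 minus dTAG-13 was -3.54 ± 0.08 (SE, adjusted p = 2e-10, limma). Of the 5 genes of this locus, the Wnt receptor gene Fzd6 and the synaptic gene Rims2 fell too, by 0.96 and 0.78. The mitochondrial folate carrier gene Slc25a32 (-0.25, adjusted p = 0.068, limma) and Dcaf13 (-0.07, adjusted p = 0.22, limma) did not pass. Dcaf13 holds an MMERVK9C element in its body and was at 82.6, 82.6 and 82.8 TPM with dTAG-13 against 79.1, 79.1 and 77.7 TPM with Dox + dTAG-13.

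Genes of the 2-cell stage program, which a small share of mESCs express at any time, were lower with Dox + dTAG-13. Of 21 tested, 20 fell and 1 rose, and 14 were called at more than 2-fold (66.7%, against 1.96% of all genes). The list had a median of -1.11, with 1.25 in dTAG-13 minus DMSO and 0.11 in Dox + dTAG-13 minus DMSO. Tdpoz3, a gene of a speckle-type POZ family, fell furthest, from 12.7, 10.3 and 11.1 TPM to 1.33, 0.975 and 1.37 TPM. Zscan4b, of the family of zinc finger genes that marks this state, was at 31.8, 39.4 and 36.6 TPM in DMSO, at 109, 101 and 121 TPM with dTAG-13, and at 39.2, 38.6 and 39.5 TPM with Dox + dTAG-13. Its difference was -1.48 ± 0.08 (SE, adjusted p = 6.1e-08, limma). Duxf3, the mouse Dux activator of this program, fell by 1.13. The single riser was Zfp750 (0.40, adjusted p = 0.031, limma), a low transcript at between 1.16 and 1.45 TPM with dTAG-13 and between 1.67 and 2.01 TPM with Dox + dTAG-13. The 6 Zscan4 and 4 Usp17l genes tested are near-identical copies and share reads, so their values are not independent.

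Whether a gene moved could also be read from genes picked in other libraries. The polyA RNA-seq time course of the TRIM28-FKBP line, which has no hairpins, has 15 libraries that enter none of the contrasts above. There, 1819 of 17922 tested genes (10.1%) were called higher and 360 (2.01%) lower after 24 h of dTAG-13 against DMSO. Of the higher genes, 1430 were tested in the shERV line. With Dox + dTAG-13 against dTAG-13, 685 of these fell (47.9%, against 29.3% of all genes) and 91 rose (6.36%, against 17.5%). Falls of more than 2-fold were called for 131 (9.16%, against 1.96%) and rises for 4. Their median difference was -0.26, with 0.38 in dTAG-13 minus DMSO and 0.12 in Dox + dTAG-13 minus DMSO. Genes that passed the filter through the dTAG-13 libraries alone could fall here but hardly rise, and they were not counted apart. The median was -0.23 with no filter on low values and -0.30 with genes at a mean of at least 5 TPM.

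Of the genes lower at 24 h in the time course, 305 were tested in the shERV line. With Dox + dTAG-13, 219 rose (71.8%, against 17.5%) and 18 fell (5.90%, against 29.3%), and 84 were called higher (27.5%, against 1.49%) and none lower. Their median difference was 0.46, with -0.50 in dTAG-13 minus DMSO and -0.00 in Dox + dTAG-13 minus DMSO. Of the 305, 9 are members of the pluripotency list, and the other 296 had a median of 0.45. Each Dox + dTAG-13 library was also set against the dTAG-13 mean, and each dTAG-13 library against the Dox + dTAG-13 mean. The library medians so obtained lay between 0.432 and 0.540 for the 305 genes. They lay between -0.318 and -0.219 for the genes higher in the time course. Size depended on how the genes were picked: with genes lower at any fold in the time course (25.0% of those tested there, of which 4219 were tested here) the median was 0.06, and with genes higher at any fold (42.9%, of which 6812 were tested here) it was -0.16.

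**Figure D3:**
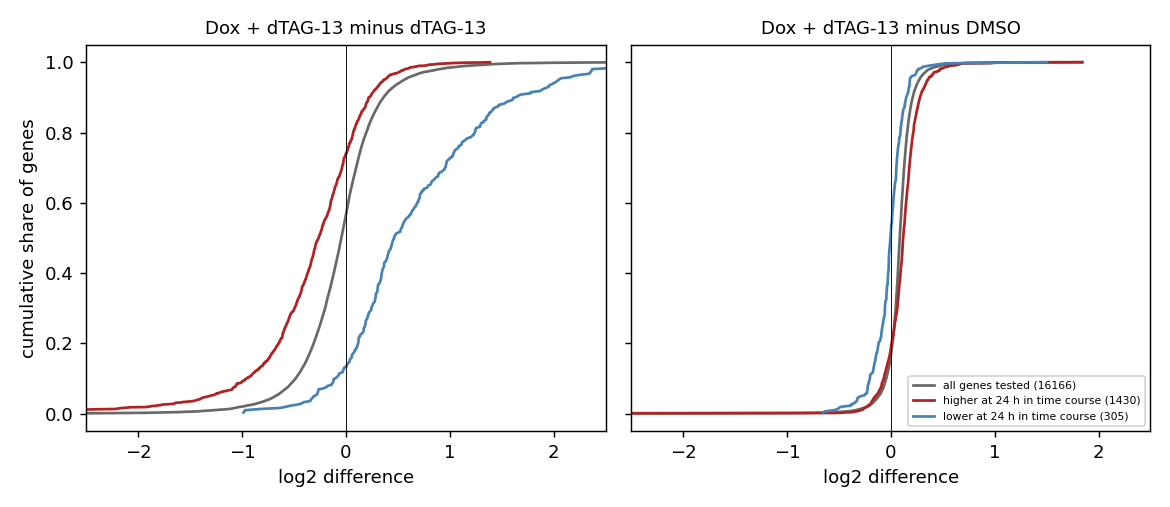
Cumulative share of genes by log2 difference (horizontal axis) in Dox + dTAG-13 minus dTAG-13 (left) and in Dox + dTAG-13 minus DMSO (right), for all 16166 tested genes (grey) and for genes higher (red, 1430) or lower (blue, 305) at 24 h of dTAG-13 in the time course; the axes end at -2.5 and 2.5, and genes beyond are not drawn. On the left the blue curve lies right of the grey one and the red curve left of it, with medians of 0.46 and -0.26; on the right all 3 curves lie near 0.

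Individual genes of the time course lists did not all follow. The 4 called higher here although higher at 24 h in the time course were Pnpla3, a lipid droplet hydrolase gene (1.39), the tubulin ligase gene Ttll6 (1.31), Mir6391 (1.14) and Ly6g6e (1.06). Pnpla3 was at 1.82, 1.66 and 1.60 TPM in DMSO, at 0.509, 0.470 and 0.522 TPM with dTAG-13, and at 1.96, 2.06 and 2.34 TPM with Dox + dTAG-13. In the shERV line it was thus lower with dTAG-13 than in DMSO, by 1.13, whereas the time course gave 1.16 higher. Among genes lower in the time course, the largest falls with Dox + dTAG-13 were those of the natriuretic peptide gene Nppb (-0.99), the cytokine gene Il24 (-0.98) and the hair follicle gene Tchh (-0.97). Nanog differed between the experiments as well, since it was 0.54 higher at 24 h in the time course and 1.06 lower with dTAG-13 in the shERV line. The 2 experiments differ in the line, the RNA selected (polyA against total RNA) and the libraries, and these cannot be told apart.

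Genes were then placed by their distance to 1225 full-length MMERVK or MMETn elements listed by the study. Of these, 349 MMERVK10C, 196 MMERVK9C and 445 MMETn elements belong to families that the hairpins address, whereas 60 MMERVK10D3 and 175 MMERVK9E elements do not. The list of IAPs at hand is shortened and was not used. Of 87 genes whose body overlaps such an element, 50 were lower with Dox + dTAG-13 (57.5%, against 29.3% of all genes) and 9 higher. Falls of more than 2-fold were called for 11 (12.6%, against 1.96%) and rises for 2, which were Hsf2bp and Sprr2a2. The median difference was -0.32. By the distance of the gene start, 14 of 111 genes within 10 kb were called lower (12.6%), 41 of 470 genes from 10 to 50 kb (8.72%), 24 of 593 from 50 to 100 kb (4.05%) and 238 of 14992 beyond 100 kb (1.59%). Calls of higher genes stood at 0 of 111, 6 of 470 (1.28%), 7 of 593 (1.18%) and 228 of 14992 (1.52%) in the same order. The 87 overlapping genes are counted in these distance classes too. A gene could pass the filter through its dTAG-13 libraries alone, and such a gene could be called lower here but hardly higher. How many genes of each class did so was not counted, so the excess of falls near elements may in part reflect the filter.

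**Figure D4:**
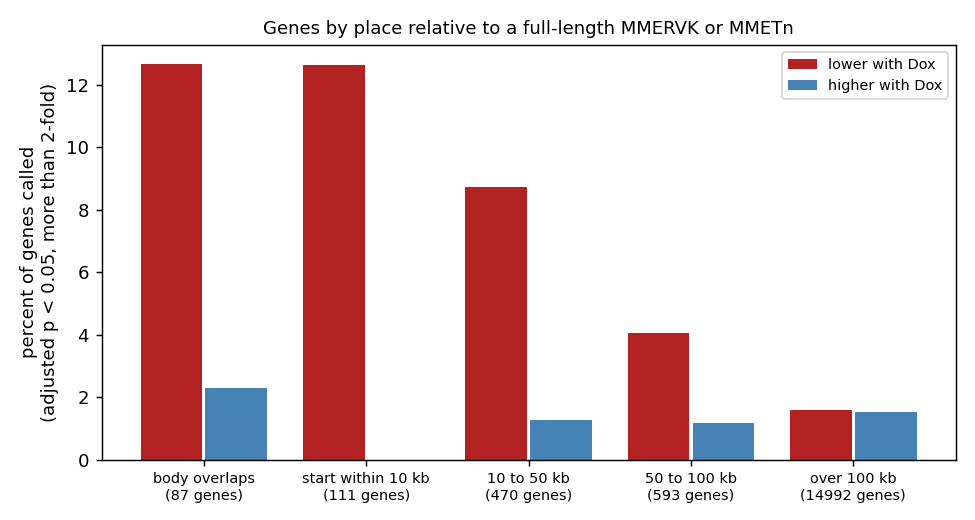
Percent of genes called lower (red) or higher (blue) with Dox + dTAG-13 against dTAG-13, by place relative to a full-length MMERVK or MMETn element; the number of genes is given under each pair of bars. The red bars fall from 12.6% for overlapping genes to 1.59% beyond 100 kb, and the blue bars stay at or under 2.30%.

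Among the genes that overlap an element, Gm11331 on chromosome 13 (MMERVK10C) was at 1.19, 1.18 and 0.633 TPM in DMSO, at 12.9, 8.45 and 9.38 TPM with dTAG-13, and at 2.4, 1.64 and 1.52 TPM with Dox + dTAG-13. The 3 groups did not overlap, and the fall from dTAG-13 to Dox + dTAG-13 was 2.19 on the log2 scale, a difference of -2.19 ± 0.20 (SE, adjusted p = 4.2e-06, limma). Gm19792 (MMETn) fell from 6.33, 6.25 and 4.88 TPM to 0.121, 0.239 and 0.336 TPM. Gm4316 (MMERVK10D3) and Mctp1 (MMETn), a calcium-binding membrane protein gene, fell by 1.77 and 1.75. Mctp1 was at 1.82, 1.73 and 2.24 TPM with dTAG-13 and at 0.156, 0.177 and 0.346 TPM with Dox + dTAG-13. For such genes, reads of the element and reads of the gene were not separated here, and a hairpin that acts on a shared transcript and a change of transcription cannot be told apart.

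The 10 genes with an exact hairpin target in the sense of an annotated transcript were looked at one by one. 4 of them were tested, and the other 6 had at most 1.21 TPM in any of the 9 libraries. Wdr31, with an IAPez hairpin 1 target in 1 of its transcripts, was at 9.71, 10.8 and 12.2 TPM in DMSO, at 6.02, 7.40 and 7.01 TPM with dTAG-13, and at 11.7, 11.3 and 12.1 TPM with Dox + dTAG-13. It was thus higher with Dox + dTAG-13 than with dTAG-13, by 0.75 (adjusted p = 4.9e-05, limma). Snhg14, an imprinted long noncoding RNA, differed by 0.20 (adjusted p = 0.044, limma). It passed at any fold only, and no longer passed in several of the alternative settings. The sirtuin gene Sirt5 differed by -0.18 (adjusted p = 0.27, limma), with 4.88, 7.07 and 6.69 TPM against 4.77, 5.44 and 5.92 TPM. The noncoding gene 6430590A07Rik, with a target of MMERVK10c hairpin 2, differed by 0.13 (adjusted p = 0.51, limma). None of the 4 tested genes was lower with an adjusted p below 0.05.

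Other gene lists moved less, and their medians are to be read against -0.04 for all genes. Replication-dependent histone genes were higher for 55 of 70 (78.6%, against 17.5% of all genes), by small amounts (median 0.24) and with none over 2-fold, and only Hist1h1e among them was lower (-0.16). These transcripts lack a polyA tail and are captured in total RNA. Of 13 mitochondrially encoded mRNAs, 10 rose (76.9%) and none fell, with a median of 0.19. mt-Co1, a subunit of cytochrome oxidase, was at between 5096 and 5551 TPM with dTAG-13 and between 6198 and 6334 TPM with Dox + dTAG-13. Genes of cytosolic ribosomal proteins stayed close to 0 (median 0.03, 6 higher, 7.14%, and 1 lower, 1.19%, of 84), apart from the tissue-restricted paralogs Rpl10l (1.07) and Rpl39l (-1.38).

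In signalling lists, members went in both directions. Of 14 genes of the FGF-ERK pathway and its feedback, 5 rose (35.7%, against 17.5% of all genes) and 4 fell (28.6%, against 29.3%). Spry4 (1.23) and Etv4 (0.89), which ERK signalling induces, rose with Fgf4, while the receptor gene Fgfr1 (-0.37) and the feedback regulator genes Dusp5 (-0.38) and Il17rd (-0.39) fell. Of 9 genes of LIF-STAT3 signalling, 5 rose (55.6%) and 1 fell (11.1%), and Gbx2, a homeobox target of STAT3, rose by 2.06 from 2.74, 3.10 and 2.49 TPM to 12.4, 13.6 and 13.3 TPM. Of 9 genes of the formative epiblast, 3 rose (33.3%) and 4 fell (44.4%). The risers were Foxd3 at 1.24, Fgf15 at 0.85 and Dnmt3b at 0.65, and the falls included Otx2 at -0.81 and Lef1 at -0.58.

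Lineage lists are set against 29.3% of all genes lower and 17.5% higher at any fold. Of 17 endoderm genes, 9 fell (52.9%) and 3 rose (17.6%), with a median of -0.21. Sox17, a factor of primitive and definitive endoderm, was at 3.77, 3.36 and 4.62 TPM with dTAG-13 and at 1.25, 1.03 and 0.361 TPM with Dox + dTAG-13 (difference -1.73), whereas the endoderm genes Lama1 and Gata6 rose, by 1.12 and 0.31. The neural list had 4 falls and 1 rise of 7, the trophoblast list 3 falls and 1 rise of 9, and the list of primitive streak and mesoderm 1 fall and 2 rises of 7. The shares of falls were thus 57.1%, 33.3% and 14.3%, of which that of trophoblast was near the background and that of primitive streak under it. Krt8 and Krt18, keratins of simple epithelium, fell by 0.51 and 0.57 from high levels, Krt18 from between 1262 and 1349 TPM to between 881 and 895 TPM. Of 20 feeder fibroblast genes, 11 fell and 4 rose (median -0.29), with Tagln, a smooth muscle actin-binding gene, at -1.0 and the collagen genes Col3a1 and Col1a2 at 0.61 and 0.40. The feeders had been depleted before treatment, and the part of any that remained in these values was not tested. The feeder list median was -0.12 with genes at a mean of at least 5 TPM, and that of the endoderm list was -0.12 with no filter on low values and -0.14 after centring.

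Of 20 p53 target genes, 13 fell (against 29.3% of all genes) and none rose (against 17.5%), and the median was -0.24, with the death receptor gene Fas at -0.81 and Ccng1 at -0.51. The interferon list had 7 falls (36.8%, near the background) and 2 rises of 19, with the chemokine gene Cxcl10 at -0.82 and the double-stranded RNA sensor gene Ifih1 at -0.82. Of 13 immediate early genes, 8 fell (61.5%) and 3 rose (23.1%), with Fos at -1.0 and Myc at 0.45. Imprinted genes split into 15 falls (48.4%) and 7 rises (22.6%) of 31. Besides Mest and H19 (-1.37), Sgce, Igf2r, Nnat and Plagl1 fell by between 0.61 and 0.66, and Phlda2, Dio3 and Slc38a4 rose by 0.85, 0.70 and 0.38. The ATF4 amino acid response list had 18 rises of 36 (50.0%, against 17.5% of all genes) and 8 falls (22.2%, against 29.3%). Its median was 0.14, and Stc2 went the other way at -1.19.

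Of 24 genes of the TRIM28 pathway and of ERV silencing, 9 rose (37.5%, against 17.5% of all genes) and 5 fell (20.8%, against 29.3%), and none passed 2-fold. Zfp57, a KRAB zinc finger gene that protects imprinted regions, was at 92.3, 91.1 and 99.1 TPM with dTAG-13 and at 175, 180 and 187 TPM with Dox + dTAG-13, a rise of 0.94. The HP1 genes went apart, with Cbx1 at 0.39 and Cbx5 at -0.23. Of 12 genes of the small RNA machinery, Drosha (0.18) and Xpo5 (0.16) rose and Prkra (-0.34) and Tnrc6a (-0.18) fell, which is 16.7% each way. Of 14 genes of hypoxia and glycolysis, 3 rose and 3 fell (21.4% each), with a median of -0.03. The medians of this list, of cholesterol synthesis and of the formative epiblast list turned positive after centring (0.04, 0.01 and 0.002), and that of hypoxia and glycolysis also after rescaling without mitochondrial and top genes (0.007). The median of the primitive streak list (0.04) turned negative with genes at a mean of at least 5 TPM and without Dox + dTAG-13 replicate 1 (both -0.06), that of the small RNA list (0.01) without dTAG-13 replicate 2 (-0.01), and that of the neural list (-0.24) turned positive with no filter on low values (0.02).

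**Figure D5:**
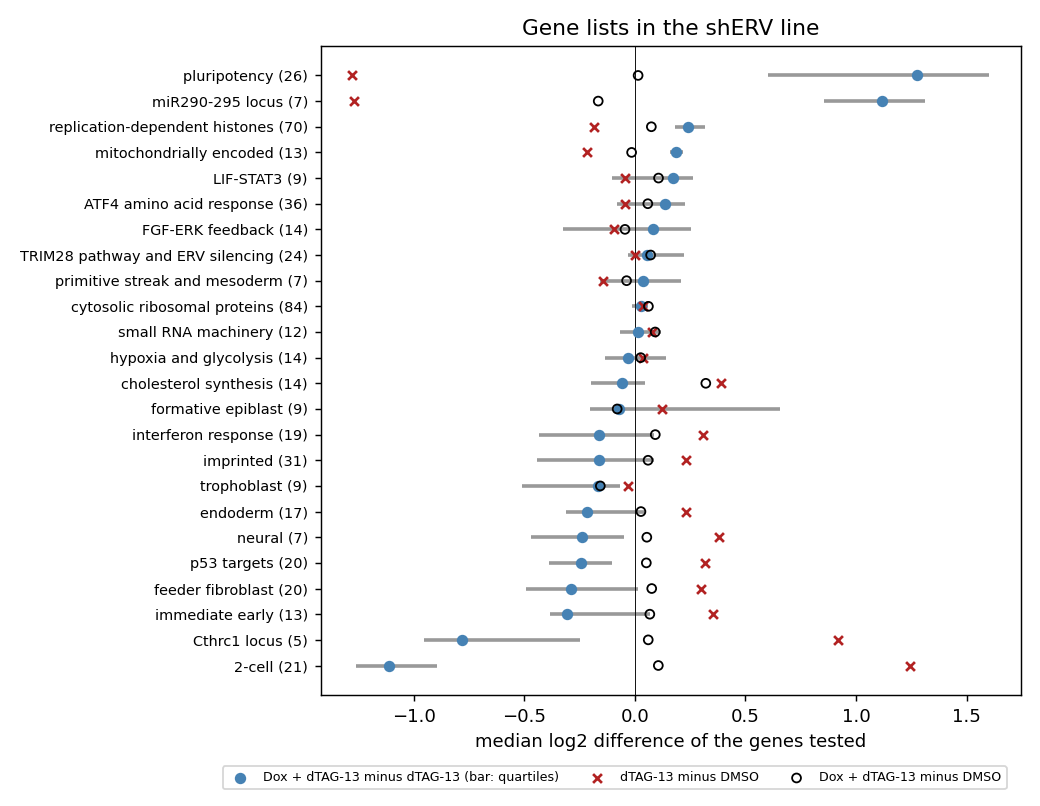
Median log2 difference of the tested genes of each list, with the number tested in brackets, in Dox + dTAG-13 minus dTAG-13 (blue points, grey bars from the first to the third quartile), dTAG-13 minus DMSO (red crosses) and Dox + dTAG-13 minus DMSO (open circles). The pluripotency list (1.28) and the miR290-295 locus (1.12) lie at one end and the 2-cell list (-1.11) at the other; most open circles lie near 0, and that of cholesterol synthesis lies at 0.32.

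The levels with Dox + dTAG-13 were finally set beside those of DMSO, in the same fit. 3 of 16166 genes (0.0186%) were called at more than 2-fold and 10 (0.0619%) at any fold in limma, while 2911 had an unadjusted p below 0.05. Without DMSO replicate 1, 0 genes were called at more than 2-fold, 2 passed at any fold and 1784 had an unadjusted p below 0.05. A p that misses the threshold does not show equal levels, and so the intervals were read as well. The 95% interval of the difference lay within 2-fold in both directions for 15880 of the 16166 genes. It lay within that range for all 26 pluripotency genes, all 21 genes of the 2-cell list and all 214 SE-nearest genes. These full counts are near the share over all genes tested. The counts were 6 of 7 for the miR290-295 locus, 179 of 205 for snoRNA genes and 312 of 392 for microRNA genes. The median gene was 0.09 above DMSO.

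For Klf4 the difference of Dox + dTAG-13 minus DMSO was 0.05 (95% interval -0.07 to 0.17), for Sox2 -0.05 (-0.16 to 0.07) and for Pou5f1 -0.01 (-0.12 to 0.10). For Klf2 and Esrrb the intervals lay above 0, with 0.20 (0.08 to 0.33) and 0.19 (0.02 to 0.36), and neither passed the adjustment over all genes. For Lefty1 the interval lay below 0, with -0.27 (-0.39 to -0.16). The 8 genes above DMSO at any fold (0.0495%) were Gm22884 (1.59), Gm12260 (0.69), Plpbp (0.46), Lss (0.44), Zfp229 (0.44), Smim14 (0.42), Gm21769 (0.35) and Idi1 (0.32), and the 2 below it (0.0124%) were Gm12238 (-1.81) and Gm20431. Gm12238 (chromosome 11, 55482706 to 55482829) lies inside Gm22884 (55482694 to 55482833) on the same strand, so that these opposite differences come from 1 locus whose reads may be shared. Gm20431 was at 8.75, 4.03 and 6.06 TPM in DMSO and was listed at 0 in all 3 Dox + dTAG-13 libraries, so that no fold is given for it. Gm12260 was at 42.1, 44.7 and 48.8 TPM in DMSO, at 137, 126 and 133 TPM with dTAG-13, and at 70.8, 76.6 and 71.9 TPM with Dox + dTAG-13. Its Dox + dTAG-13 libraries thus lay between the other groups. The 10 genes were named after their values were seen.

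Lss and Idi1 are enzymes of cholesterol synthesis. All 14 tested genes of that list were higher with dTAG-13 than in DMSO (adjusted p below 0.05, any fold; 41.2% of all genes were), with a median of 0.39. In Dox + dTAG-13 minus dTAG-13, 6 fell (42.9%, against 29.3% of all genes), 8 did not pass and none rose, with a median of -0.06. In Dox + dTAG-13 minus DMSO the median was 0.32 against 0.09 for all genes. The unadjusted 95% intervals of all 14 lay above 0 there, and only Lss and Idi1 passed the adjustment. Of all 16166 genes, 2911 had an unadjusted p below 0.05 there in limma, in either direction. That number was 1784 without DMSO replicate 1 and 1634 after centring. Lss, the lanosterol synthase gene, was at 16.3, 17.6 and 16.7 TPM in DMSO, at 22.3, 19.9 and 22.0 TPM with dTAG-13, and at 23.2, 22.0 and 24.1 TPM with Dox + dTAG-13, so that the latter groups overlapped. Idi1, the isopentenyl diphosphate isomerase gene, was at 42.3, 45.6 and 41.7 TPM in DMSO, at 89.2, 83.4 and 87.7 TPM with dTAG-13, and at 55.3, 52.5 and 54.9 TPM with Dox + dTAG-13. Its Dox + dTAG-13 libraries lay between the other groups without overlap, 0.67 below dTAG-13 and 0.32 above DMSO. Insig1, a feedback regulator of the pathway, was 0.53 above DMSO (interval 0.35 to 0.71) and 0.20 above dTAG-13 (adjusted p = 0.073, limma).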

How the data were processed

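Total RNA libraries of the shERV line (3 each of DMSO, dTAG-13 and Dox + dTAG-13) and the polyA RNA-seq time course (15 libraries) were used. The authors trimmed reads with cutadapt 2.4, aligned them to mm10 with STAR 2.7.5a and deposited 1 StringTie 2.0.6 gene table per library, per the submitters' processing notes. The annotation and strand setting of the counting are not given in the sources used here, so overlapping, antisense and near-identical genes are uncertain. Each deposited table holds TPM and FPKM, scaled by the authors to length and library, and a mean read coverage signal that the authors did not scale to depth. TPM was tested, FPKM of time course DMSO libraries defined active genes (above 1 FPKM), and coverage gave relative depth. Repeated gene identifiers were summed. Of 54409 identifiers shared with GENCODE vM21, 53495 had the same position.

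Genes that reached 1 TPM in 3 or more libraries were compared with limma 3.58.1 (R 4.3.3; lmFit, eBayes with trend) on log2(TPM + 0.5), with group as the only term, all 9 libraries in 1 fit and Benjamini-Hochberg adjustment; all adjusted p are from it. Called means an adjusted p below 0.05 and more than 2-fold. ± is the standard error of the fit. The script was tested on simulated data. A gene that reached 1 TPM only in the libraries of 1 group, as Mest did with dTAG-13, was tested too. The direction of its difference from that group was close to fixed by the filter. Lists are described by counts and medians, with no test. The comparison, the 24 lists and the named genes were chosen with earlier results of these data known. The named genes are a fixed set (Trim28, pluripotency and SE genes, the Cthrc1 and miR290-295 loci), the 10 largest rises and falls whose groups do not overlap, up to 4 passing members a list and direction, genes with a hairpin target, the 5 largest changes each way in the time course lists, and 5 that overlap an ERV. SE and ERV positions and hairpin oligos are from the study's tables.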

Additional observations from a re-analysis of the deposited data

How the results depend on the processing

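The count of called genes ranged from 555 to 582 when each library was left out in turn, and was 237 (123 higher, 114 lower) with genes at a mean of at least 5 TPM. It was 798 and 383 with pseudocounts of 0.1 and 1. The replicate number as a block gave 561 (244 higher, 317 lower). The numbers share nothing in the labels, and deviations of same-numbered libraries correlated between -0.205 and 0.06 (9 pairs), against -0.105 to 0.183 for different numbers (18 pairs). Medians of SE-nearest genes were 0.13 at a mean of at least 5 TPM, 0.24 after centring, 0.20 after rescaling without mitochondrial and the 50 top genes, and 0.13 without the pluripotency list (added after seeing the data); leaving out libraries gave 0.165 to 0.176. Medians of time course higher genes were -0.30 at a mean of at least 5 TPM, -0.19 after centring and -0.16 with genes picked at any fold, and -0.284 to -0.249 with libraries left out. Those of lower genes were 0.53 with a pseudocount of 0.1, 0.39 at a mean of at least 5 TPM, 0.54 after centring, 0.53 after rescaling and 0.063 with genes picked at any fold, and 0.457 to 0.504 with libraries left out. The causes were not tested. None of the medians in this paragraph changed sign, whereas those of several gene lists did, as given above. More called genes were lower than higher (241 higher, 317 lower), and this order turned at a mean of at least 5 TPM and after centring (293 higher, 252 lower). Depth in reads is unknown, which limits what can be said of genes near 1 TPM.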

Other observations

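By annotated biotype, snoRNA genes were more often higher than lower with Dox + dTAG-13 against dTAG-13 (73 higher and 3 lower of 205, or 35.6% and 1.46% against 17.5% and 29.3% of all genes, median 0.31), and so were microRNA genes (123 and 11 of 392, or 31.4% and 2.81%, median 0.32). Unprocessed pseudogenes went the other way, with 20 higher (14.6%) and 63 lower (46.0%) of 137, a median of -0.32 and 30 called lower at more than 2-fold (21.9%, against 1.96% of all genes). Protein-coding genes, 12795 of those tested, had a median of -0.07.

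A few genes differed more between libraries of 1 group than between groups. Mir6236 was at 2604, 32.0 and 217 TPM in DMSO, at 12.4, 391 and 27.6 TPM with dTAG-13 and at 26.1, 6.04 and 3.03 TPM with Dox + dTAG-13. Gm24270 was at 7283, 347 and 1325 TPM, at 41.4, 1154 and 126 TPM, and at 121, 27.4 and 22.4 TPM in the same order. Lars2 was at 1193, 28.8 and 128 TPM in DMSO. None of these 3 genes passed the adjusted p in Dox + dTAG-13 against dTAG-13. In all 3, the highest library was DMSO replicate 1, in which the 50 genes of highest mean TPM over the 9 libraries took the largest share.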
